A study of Mus musculus with 26 samples.

Results

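The data described here are those of the 4 mouse Hox clusters and of Halr1, a long noncoding RNA gene beside the HoxA cluster. The members were taken by name: 38 Hox genes (10 in HoxA, 10 in HoxB, 9 in HoxC and 9 in HoxD) and Halr1, 39 of the 52535 gene rows in the count tables. In the lists of chromatin loops, the same loci were the span of each cluster and of Halr1, widened by 100 kb on both sides. Loops with an anchor there numbered 474 of 143451 in the WT-labelled list and 151 of 489409 in the KO-labelled list.

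The study used E14, a mouse embryonic stem cell line, as wild type (WT) or with Klf4 knocked out (KO), and took both through 12 days of neural induction towards neural progenitor cells. Klf4 encodes a zinc-finger protein that, with others, maintains the naive pluripotent state. RNA-seq was made from 2 biological replicates per genotype. RNA polymerase II HiChIP, which enriches pairs of distant DNA fragments joined at sites that carry the polymerase, was deposited as 1 loop list per genotype. Both genotypes share the E14 background and the induction. How the knockout was made, and from how many clones, is not given in the sources used here.

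Hox genes encode homeodomain transcription factors that set position along the body axis. They lie in clusters in which gene order follows the order of expression in time and along the axis, and genes at the same place in different clusters are paralogues with one group number. In embryonic stem cells the clusters are held silent by Polycomb complexes. Retinoic acid, Wnt and FGF signals and the caudal-type Cdx factors open them, and TALE homeodomain proteins such as Pbx and Meis bind DNA together with Hox proteins. Halr1, also called Haunt, has been described as a regulator of the HoxA genes.

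Gene counts summed to between 29835774 and 37703866 per RNA-seq library. Klf4 itself had no count in either WT-labelled library against 2571 and 2538 counts in the KO-labelled pair (edgeR, adjusted p = 1.25e-23), which goes against the genotype labels. In the loop lists the Klf4 gene carried 41 tags on 9 loops in the WT-labelled list and 33 tags on 23 loops in the KO-labelled one. Per 1000000 tags of the list this was 101 against 33.8, which does not go against the labels. The raw tags were close, however, and the number of loops was higher in the KO-labelled list. Libraries and lists are therefore named by their labels throughout, every direction is KO-labelled over WT-labelled, and whether a label means the same genotype in both assays was not tested. Of 8 neural progenitor markers tested, 7 were higher in the KO-labelled libraries and 1 lower. Their summed level was 624 to 638 CPM (counts scaled to 1000000 per library) in the WT-labelled and 608 to 652 in the KO-labelled libraries. Most of that sum was Sox2, the 1 called lower (536 against 456 CPM). Pax6 had 6 and 0 against 120 and 130 counts, and Hes5 and Fabp7 were at 0 in both WT-labelled libraries. Of 8 pluripotency markers 7 were lower and 1 higher, with sums of 7602 to 7637 against 3722 to 3766 CPM. Of 9 hindbrain and spinal cord markers tested 7 were higher and 1 lower (5.47 to 6.11 against 33.3 to 35.3 CPM). Egr2, Nkx6-1, Pax3 and Lhx1 were at 0 in both WT-labelled libraries. Olig2, not tested, was near 0 throughout, with 0 and 0 against 0 and 1 counts. Mesoderm markers summed to 24.4 to 25.3 against 33.7 to 34.6 CPM (4 of 6 higher, 0 lower, Mesp1 at 0 in WT-labelled). Most of the mesoderm sum was Tcf15 (23.8 against 26.9 CPM), which was not called. Endoderm markers summed to 17.2 to 18.7 against 37.35 to 37.98 CPM (4 of 5 higher, 1 lower). Cdx2, the 1 lower, held most of the WT-labelled sum (16.7 against 1.67 CPM). The 4 higher were Sox17 (0.146 against 11.4 CPM), Foxa2 (0.225 against 9.43), Gata4 (0.497 against 8.62) and Gata6 (0.313 against 6.51). Of the untested endoderm markers, Afp had 0 and 0 against 0 and 1 counts, and Pdx1 had 1 and 1 against 0 and 0. Trophoblast markers summed to 114 to 117 against 484 to 487 CPM (3 of 6 higher, 3 lower, Elf5 and Tpbpa at 0 in WT-labelled, Tpbpa in KO-labelled). Their log2 fold changes were 5.70 for Krt18, 4.70 for Krt8 and 0.74 for Plet1, keratins thus showing the largest rises. Those of Gcm1, Ascl2 and Tfap2c were -3.14, -0.65 and -0.17, so the markers did not rise as a set. With library size alone as the scaling, 6 of 6 mesoderm markers were higher, trophoblast markers were 3 higher and 1 lower, and neural progenitor markers 7 higher and 0 lower. Reads without a feature took 6.05% to 6.16% of the WT-labelled and 8.00% to 8.07% of the KO-labelled totals. The part of cell makeup, of the markers and of read quality in the results below was not tested. In bulk RNA, fewer cells that express a gene cannot be told apart from less RNA per cell.

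Hox expression was low in every library, and the members with enough reads to test were lower in the KO-labelled libraries. Of the 39 members, 7 passed the filter on low counts: Halr1, Hoxa7, Hoxb9, Hoxb13, Hoxc4, Hoxc12 and Hoxc13. All 7 were called lower and 0 higher, where 35.8% of the 17273 genes tested were called lower and 37.2% higher (edgeR quasi-likelihood test, adjusted p below 0.05). Hoxb9 and Hoxc13 exceeded the filter's level in the KO-labelled libraries as well. The other 5 passed through the WT-labelled libraries alone, so the count of 7 is a description and not support for a direction. A total of 7 Hox genes had no count in any library (Hoxa6, Hoxa13, Hoxb3, Hoxb5, Hoxb6, Hoxd3 and Hoxd12), and 24 of the 38 had under 10 counts in each of the 4. Levels are compared between libraries and not between genes, since the tables give no gene lengths.

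**Figure D1:**
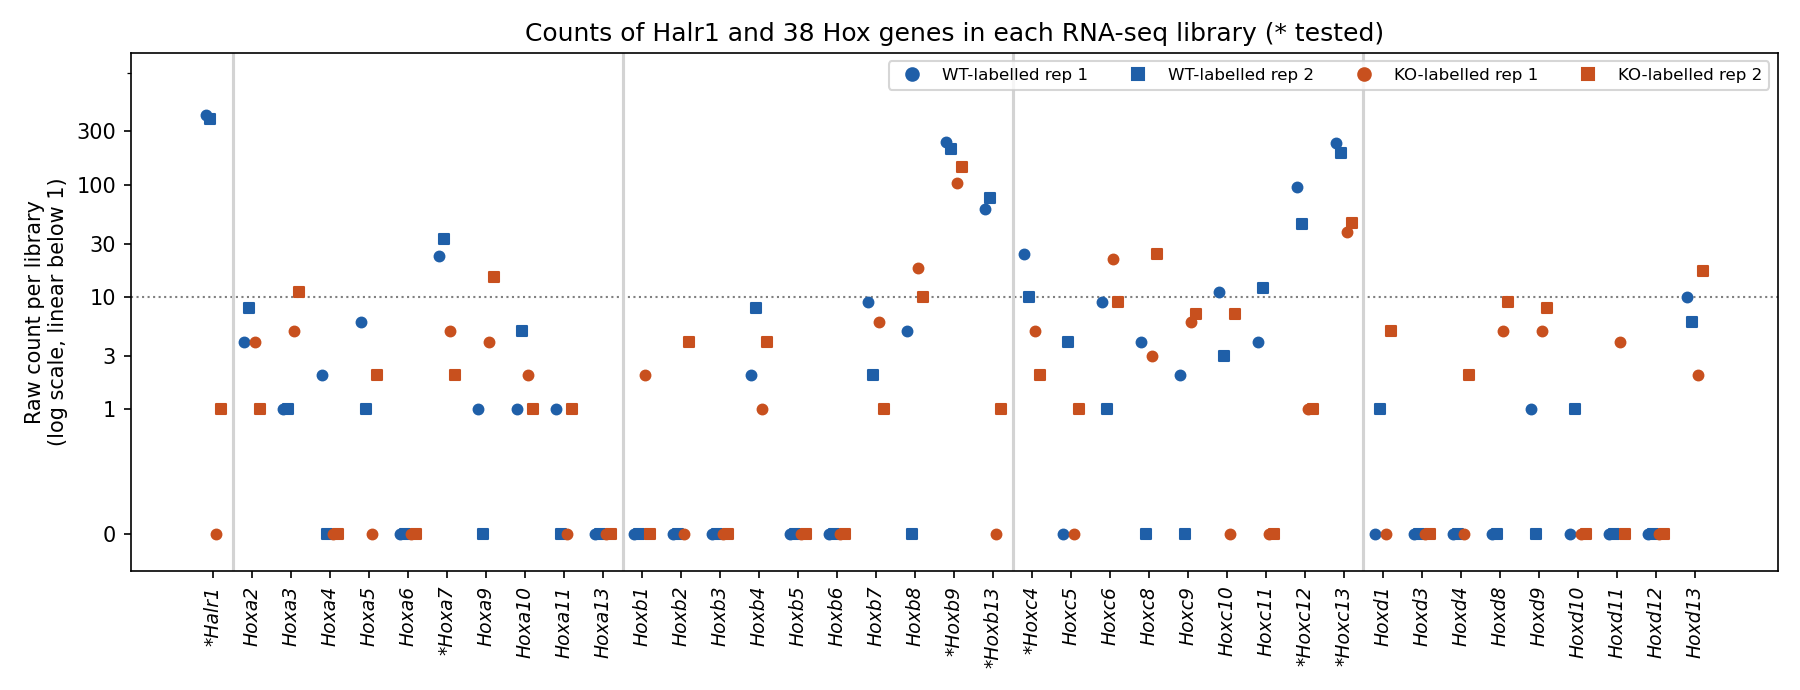
Raw counts of the 39 members in each library (vertical axis, log scale that is linear below 1; the dotted line marks 10 counts), grouped as Halr1, HoxA, HoxB, HoxC and HoxD, with blue for WT-labelled and orange for KO-labelled libraries, circles for replicate 1 and squares for replicate 2. The 7 tested members, marked by an asterisk, have both WT-labelled points above both KO-labelled ones, while HoxD stays at 17 counts or fewer.

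Halr1 (mm10, chromosome 6, 52102949 to 52113684) showed the widest difference among the members. It had 417 and 390 counts in the WT-labelled libraries against 0 and 1 in the KO-labelled pair, or 12.99 ± 1.56 CPM against 0.0139 ± 0.0197 (SD, n = 2). The KO-labelled libraries were thus almost empty for this transcript, and the groups did not overlap. The ratio of counts scaled to library size was 902, with an exact 95% interval of 161 to 35655 that covers counting error only (edgeR adjusted p = 2.25e-16). A single KO-labelled read sets this ratio: it was 461 without KO replicate 1, and at least 148 without KO replicate 2, against a floor of 3 counts. The 250 bases before the annotated start of Halr1 are shown because an anchor of the WT-labelled list overlapped them and none of the KO-labelled list did. The sequence is from RefSeq (GRCm38.p6, the assembly of mm10), and capitals, here and for the other promoters, mark a match to one of the motifs named with the promoters below; Halr1 had none.
Halr1 promoter (chr6:52102699-52102948, plus strand): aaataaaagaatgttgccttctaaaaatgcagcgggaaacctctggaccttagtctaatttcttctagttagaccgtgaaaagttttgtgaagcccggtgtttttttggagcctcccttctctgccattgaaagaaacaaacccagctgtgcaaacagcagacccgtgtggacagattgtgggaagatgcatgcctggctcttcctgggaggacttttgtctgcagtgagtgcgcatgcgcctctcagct

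Most of the Hox reads came from genes of the posterior groups, 9 to 13, which pattern the trunk and tail end of the axis. Hoxc13, the last gene of its cluster and known for its role in hair and nail keratinization, had 238 and 191 counts against 38 and 46. It stood at 6.84 ± 0.0838 CPM in the WT-labelled and 1.20 ± 0.123 CPM in the KO-labelled libraries (SD, n = 2), so the groups lay far outside their spread. Hoxc13 fell by 2.51 ± 0.25 on the log2 scale (SE, edgeR adjusted p = 2.21e-09). Hoxc12, its neighbour, had 95 and 45 counts against 1 and 1. The 2 WT-labelled libraries differed among themselves in Hoxc12 (2.71 and 1.63 CPM), and both stood above the KO-labelled ones. The Hoxc12 ratio of scaled counts was 78.2 (exact interval 21.2 to 652; edgeR adjusted p = 5.13e-08).

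In HoxB, the posterior genes Hoxb13 and Hoxb9 were the members tested. Hoxb13, known in the tail bud and in the prostate, had 61 and 76 counts against 0 and 1, a ratio of scaled counts of 153 (exact interval 27.02 to 6089; edgeR adjusted p = 4.04e-08). That ratio was 78.2 without KO replicate 1, and at least 25.6 without KO replicate 2, against a floor of 3 counts. Hoxb9, a thoracic patterning gene, had 242 and 207 counts against 105 and 143. It stood at 7.19 ± 0.412 against 3.53 ± 0.654 CPM (SD, n = 2), the smallest fold difference of the 7, and the groups did not overlap. Hoxb9 fell by 1.02 ± 0.20 on the log2 scale (SE, edgeR adjusted p = 7.66e-05).

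The remaining posterior genes were not tested. Hoxc11 had 4 and 12 counts against 0 and 0, and Hoxc10 had 11 and 3 against 0 and 7. Hoxa9, by contrast, had 1 and 0 against 4 and 15, Hoxc9 had 2 and 0 against 6 and 7, and Hoxd9 had 1 and 0 against 5 and 8. Posterior genes at these depths thus stood on both sides. Hoxd13 had 10 and 6 against 2 and 17, so its groups overlapped. Hoxa10, Hoxa11, Hoxd10 and Hoxd11 had 5 counts or fewer in every library. A fit without the filter, in which 32 members had reads, called Hoxc11 lower (edgeR adjusted p = 0.0118) and Hoxa9 and Hoxd8 higher (adjusted p = 0.0479 and 0.0348). With the 7 above this makes 8 lower and 2 higher of 32. Over all 28637 genes in that fit, 6329 were called lower and 6569 higher.

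Among the middle groups, 4 to 8, which pattern the neck and trunk, Hoxa7 and Hoxc4 were tested. Hoxa7 had 23 and 33 counts against 5 and 2, or 0.924 ± 0.380 against 0.101 ± 0.0637 CPM (SD, n = 2), and the groups did not overlap. Hoxa7 fell by 3.15 ± 0.76 on the log2 scale (SE, edgeR adjusted p = 6.56e-04), and by 3.95 without KO replicate 1. Hoxc4 had 24 and 10 counts against 5 and 2, and fell by 2.36 ± 0.82 (log2, SE, edgeR adjusted p = 0.0124). The Hoxc4 call rests on few reads: it was lost with DESeq2 (adjusted p = 0.0601), and with edgeR without WT replicate 1 (adjusted p = 0.249), without KO replicate 1 (0.0549, log2 fold change -3.15) and without KO replicate 2 (0.204).

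The untested middle genes leaned no single way. Hoxb8 had 5 and 0 counts against 18 and 10, and Hoxd8 had 0 and 0 against 5 and 9, both without overlap. Hoxc6 (9 and 1 against 22 and 9) and Hoxc8 (4 and 0 against 3 and 24) overlapped, as did Hoxb7 (9 and 2 against 6 and 1) and Hoxb4 (2 and 8 against 1 and 4). Hoxa5 had 6 and 1 against 0 and 2 and Hoxc5 had 0 and 4 against 0 and 1, also with overlap. Hoxa4 and Hoxd4 had 2 counts or fewer everywhere. The 7 anterior genes, of groups 1 to 3, which pattern the hindbrain, were not tested either. Hoxa3 had 1 and 1 against 5 and 11, Hoxa2 had 4 and 8 against 4 and 1, Hoxb2 had 0 and 0 against 0 and 4, Hoxb1 had 0 and 0 against 2 and 0, and Hoxd1 had 0 and 1 against 0 and 5. Of the 9 hindbrain and spinal cord markers tested, 7 were higher in the KO-labelled libraries, while the anterior Hox genes stayed at 11 counts or fewer in every library.

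Summed over genes, the clusters differed in how far apart the labels stood. HoxC summed to 11.03 and 9.61 CPM in the WT-labelled pair against 2.19 and 2.71 in the KO-labelled pair, and HoxB to 9.09 and 10.6 against 3.85 and 4.55. HoxA summed to 1.11 and 1.73 against 0.583 and 0.921. HoxD lay the other way, at 0.313 and 0.289 against 0.467 and 1.14 CPM, but no HoxD gene had enough reads to test. By paralogue group, the posterior genes summed to 19.4 ± 0.509 against 5.88 ± 1.43 CPM (SD, n = 2), the middle genes to 2.26 ± 0.185 against 1.87 ± 0.0391, and the anterior genes to 0.252 ± 0.155 against 0.453 ± 0.187. All 38 Hox genes together summed to 21.9 ± 0.478 against 8.20 ± 1.57 CPM. Without Hoxb9 and Hoxc13, which hold most of the reads, the other 36 summed to 7.85 ± 0.0177 against 3.48 ± 0.797. Nearly all of that remaining difference lay in Hoxb13 (2.24 against 0.0139 CPM) and Hoxc12 (2.17 against 0.0285 CPM). Both passed the filter through the WT-labelled libraries alone. Together with Hoxb9 and Hoxc13 they also held nearly all of the posterior difference, so the sums do not show a fall across the other Hox genes.

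**Figure D2:**
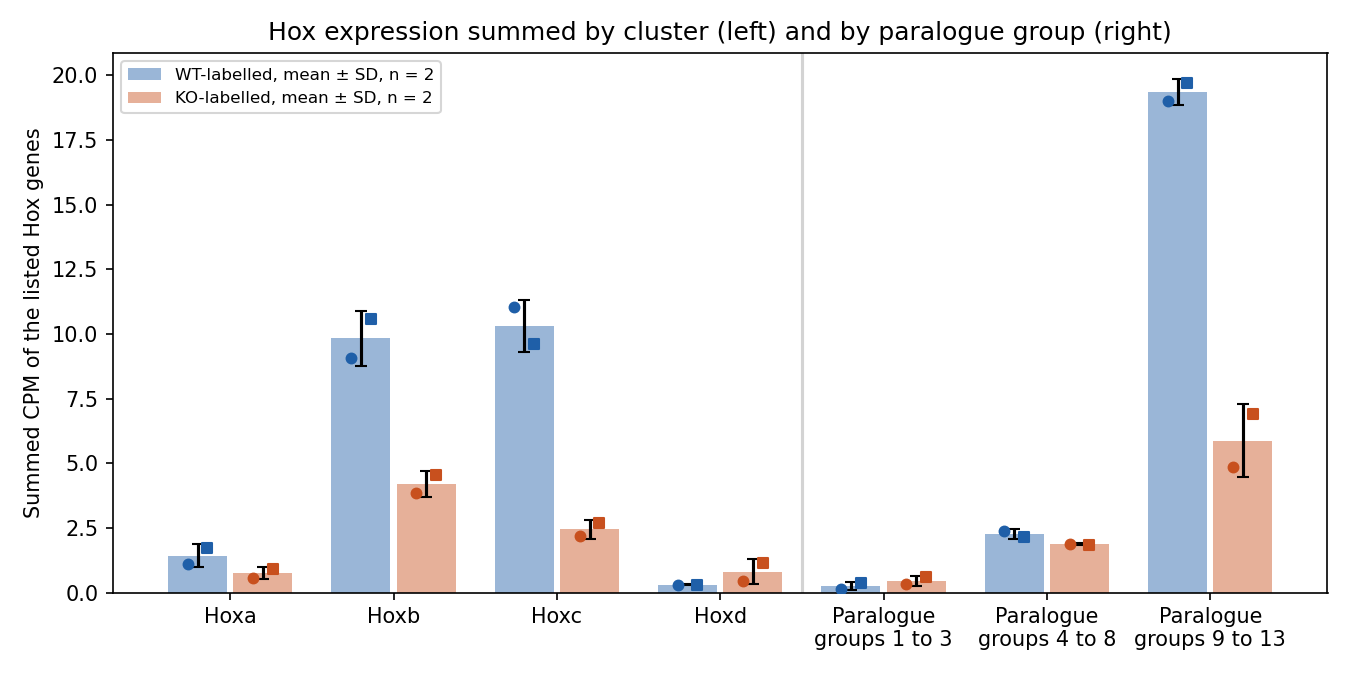
Summed CPM of the listed Hox genes by cluster (left) and by paralogue group (right), as the mean of 2 libraries (bars) with SD (error bars) and each library as a point (circle replicate 1, square replicate 2). HoxB and HoxC, and the posterior groups 9 to 13, hold most of the signal and stand lower in the KO-labelled libraries; HoxD stands at 0.301 against 0.805 CPM, with a wide KO-labelled spread.

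Of 16 noncoding RNA genes of the clusters found in the table, Mir196a-1 alone was tested. This hairpin gene lies in HoxB at mm10 chromosome 11, 96265164 to 96265265, just before Hoxb9. It had 92 and 83 counts against 20 and 39, and fell by 1.74 ± 0.38 on the log2 scale (SE, edgeR adjusted p = 2.38e-04). The row counts RNA-seq reads over the hairpin gene and not the mature miRNA, and reads of a longer transcript there cannot be told apart from it. The mature 5p arm, which is known to target Hoxb8 mRNA, is shown with its seed (bases 2 to 8) in capitals, from RefSeq. Hottip, Haglr, Mir10a, Mir10b, Mir196a-2, Mir196b, Mir615 and Hoxd3os1 had no count in any library, and Hotair had 0 and 4 against 0 and 1.
mmu-miR-196a-5p: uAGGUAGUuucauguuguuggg

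Genes known to act upstream of the Hox clusters moved both ways. Of 17 Cdx and tail bud genes tested, 7 were higher, 6 lower and 4 not called, with a median log2 fold change of 1.15 against 0.03 over all genes tested. The caudal genes were on the lower side: Cdx1 had 1765 and 1537 counts against 3 and 12 and fell by 7.92 ± 0.19 (log2, SE), and Nkx1-2, a marker of axial progenitors, fell by 5.43 ± 0.14. Cdx2 (620 and 438 against 78 and 38 counts) and Cdx4 (13 and 11 against 1 and 1) were lower too. Fgf8, a growth factor of the tail bud and the mid-hindbrain boundary, was on the higher side with 2 and 0 against 336 and 445 counts, a ratio of scaled counts of 350 (exact interval 96.4 to 2891). Hes7, of the somite clock, had 0 and 0 against 19 and 24 counts, at least 6.31-fold higher when 3 counts per library are taken as the floor. Adjusted p-values of these 6 genes, by edgeR, were 0.00336 at most.

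Of 18 genes of retinoic acid handling and reception, 7 were higher, 4 lower and 7 not called (median log2 fold change 0.37). With library size alone, 10 of these were higher and 4 lower, and of the Cdx and tail bud genes 9 were higher and 6 lower. Cyp26a1, which breaks retinoic acid down, had 1 and 0 counts against 816 and 1017, a ratio of scaled counts of 1641 (exact interval 294 to 64837). Rxrg, a nuclear receptor, had 0 and 1 against 22 and 24 counts. Stra8, a retinoic acid target in germ cells, had 243 and 181 against 0 and 1 counts, and Dhrs3, which reduces retinal, fell by 1.99 ± 0.27 (log2, SE). Among the 11 TALE partners 6 were higher, 2 lower and 3 not called (median 0.47). Pbx4 rose by 1.79 ± 0.22 and Meis1 rose by 1.61 ± 0.63, while Pknox1 fell by 0.27 ± 0.07 and Pbx2 fell by 0.22 ± 0.04. Scaling by library size alone, which put the median over all genes at 0.24, ended both falls (log2 fold changes of -0.06 and -0.01, edgeR adjusted p = 0.489 and 0.902).

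Polycomb genes showed 10 higher, 13 lower and 8 not called of 31 (median log2 fold change -0.07). Phf19, an accessory subunit of the complex that writes H3K27 methylation, had 72 and 39 counts against 825 and 879 and rose by 3.78 ± 0.16 (log2, SE), and Pcgf5 rose by 1.49 ± 0.12. Epop, another accessory subunit, fell by 2.13 ± 0.04, and Eed, a core subunit, fell by 1.53 ± 0.04. Of 14 trithorax and H3K27 demethylase genes tested, which act against Polycomb, 5 were higher, 6 lower and 3 not called (median -0.00207). Kmt2a rose by 0.42 ± 0.04 and Kdm6b rose by 0.37 ± 0.06, while Rbbp5 fell by 0.78 ± 0.04 and Ash2l fell by 0.67 ± 0.03. With library size alone, 15 Polycomb genes were higher and 10 lower, and 9 trithorax and demethylase genes were higher and 5 lower, so neither list keeps its balance under both scalings. Counts of called genes in these lists are read against the 35.8% lower and 37.2% higher over all genes.

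Genes beside the clusters were called in both directions, where 35.8% of all genes tested were called lower and 37.2% higher. Those named here are mainly the largest called falls and rises, so they do not give a share of the neighbours. Calcoco2, a selective autophagy receptor upstream of HoxB, had 4880 and 3885 counts against 112 and 127 and fell by 5.36 ± 0.07 (log2, SE, edgeR adjusted p = 2.60e-26). Ttll6, a tubulin-modifying enzyme between Calcoco2 and Hoxb13, had 340 and 323 against 63 and 120 counts and fell by 2.03 ± 0.22 (adjusted p = 4.10e-08). Calcoco2 and Ttll6 thus stood lower, as did Hoxb13 and Hoxb9, while the HoxB neighbour Gm11539 was not called (edgeR adjusted p = 0.0738). Skap2, an adaptor protein gene on the far side of Halr1 from HoxA, fell by 0.81 ± 0.07 (adjusted p = 4.17e-11). Beside HoxD the genes went both ways: Mtx2, a mitochondrial import gene, fell by 0.48 ± 0.06, Lnpk, an endoplasmic reticulum gene, rose by 0.28 ± 0.09, and the pseudogene Mrpl23-ps1 (5 and 4 against 13 and 24 counts) rose by 1.85 ± 0.76. In HoxA, Evx1, an even-skipped homeobox gene at the end of the cluster, had 13 and 3 against 17 and 28 counts and was not called (adjusted p = 0.0844).

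In the loop lists, the Hox clusters carried polymerase anchors and loops in the WT-labelled list and no anchor in the KO-labelled list. Each list pools the replicates, so no loop result has a replicate check or a test. Its values are the authors' counts of paired tags per loop and the authors' false discovery rate (FDR). The KO-labelled list is the larger, with 977208 tags and 51088 anchors covering 173 Mb, against 407150 tags and 24123 anchors covering 92.5 Mb, so tags are given as scaled tags, per 1000000 tags of the list. As each list has anchors called on its own data, a locus with no listed loop may still have had reads, and a 0 sets no limit. Over all the Hox and Halr1 regions together, 890 tags lay on loops in the WT-labelled list, 2186 scaled tags (exact 95% interval 2045 to 2334), and 251 in the KO-labelled list, 257 scaled tags (226 to 291). The ratio, KO-labelled over WT-labelled, was 0.118, with an exact interval of 0.102 to 0.135 for counting error only.

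**Figure D3:**
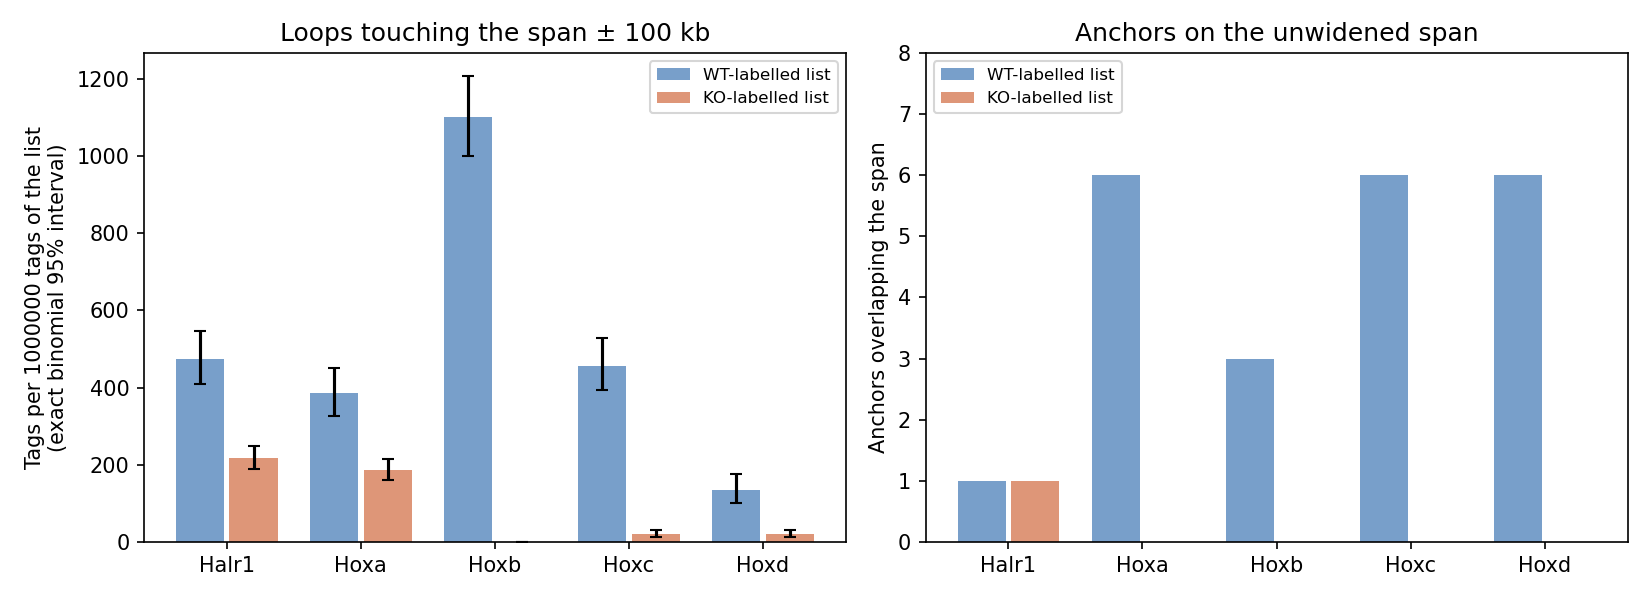
Left, tags per 1000000 tags of each list on loops that touch a locus widened by 100 kb, with exact binomial 95% intervals (none is drawn at 0); right, number of anchors that overlap the unwidened locus. The KO-labelled list has 0 anchors on every Hox cluster and 1 on Halr1, and the widened HoxA region holds the same anchors as part of the Halr1 region.

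The 4 cluster spans held 21 WT-labelled anchors (6 in HoxA, 3 in HoxB, 6 in HoxC and 6 in HoxD) and 0 KO-labelled ones. None of the 21 was overlapped by a KO-labelled anchor, where 42.5% of all WT-labelled anchors were not. The nearest KO-labelled anchor lay 48.6 kb to 193 kb away, and for 11 of the 21 none lay within 100 kb, against 6.78% of all WT-labelled anchors. By gene, 17 of the 38 Hox genes carried a WT-labelled anchor on the gene body and 0 a KO-labelled one. Of 8305 protein-coding genes with a WT-labelled anchor and no longer than the longest Hox member, 6.01% carried no KO-labelled anchor. These 17 are not independent, because some gene models overlap: the body of Hoxa3 spans Hoxa4, Hoxa5 and Hoxa6. Among the 6 Hox genes called lower in RNA, Hoxb9, Hoxc4, Hoxc12 and Hoxc13 carried a WT-labelled anchor, and Hoxa7 and Hoxb13 did not. Anchors also lay on genes with few or no reads, such as Hoxd3 and Hoxa6, which had no count in any library.

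HoxB had the most WT-labelled tags of the widened regions. It had 212 loops with 448 tags in the WT-labelled list, 1100 scaled tags (exact interval 1001 to 1207), and 0 loops in the KO-labelled list. With 25 kb of widening in place of 100 kb, HoxB had 195 tags against 0, close to the 186 against 0 of HoxC. The anchor with most loops among all the Hox anchors lay at mm10 chromosome 11, 96248315 to 96256328, over Gm11539 and Gm53 between Hoxb13 and Hoxb9, and had 54 loops and 148 tags. It joined the region of Calcoco2 and Ttll6 with 14 tags over 126 kb (FDR 1.65e-04) and an Igf2bp1 anchor with 11 tags over 247 kb (FDR listed at 0). The loop with most tags in the widened region, 25, joined anchors on Calcoco2 and Ttll6 (FDR 2.26e-07). Hoxb9 itself carried 20 loops with 29 tags. In the KO-labelled list, no anchor lay between 96077319 and 96675651, a stretch of 598 kb around the cluster. The WT-labelled list had its last anchor before the cluster end at 96141920, 52.4 kb away, and 3 anchors in it. Gm53, under this central anchor, was among the neighbours called lower in RNA (1426 and 1129 against 425 and 435 counts). So were Calcoco2 and Ttll6, under anchors that the central anchor joined. Gm11539, also under the central anchor, was not called (36 and 44 against 13 and 31 counts, edgeR adjusted p = 0.0738). RNA of the Igf2bp1 partner is not given here.

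**Figure D4:**
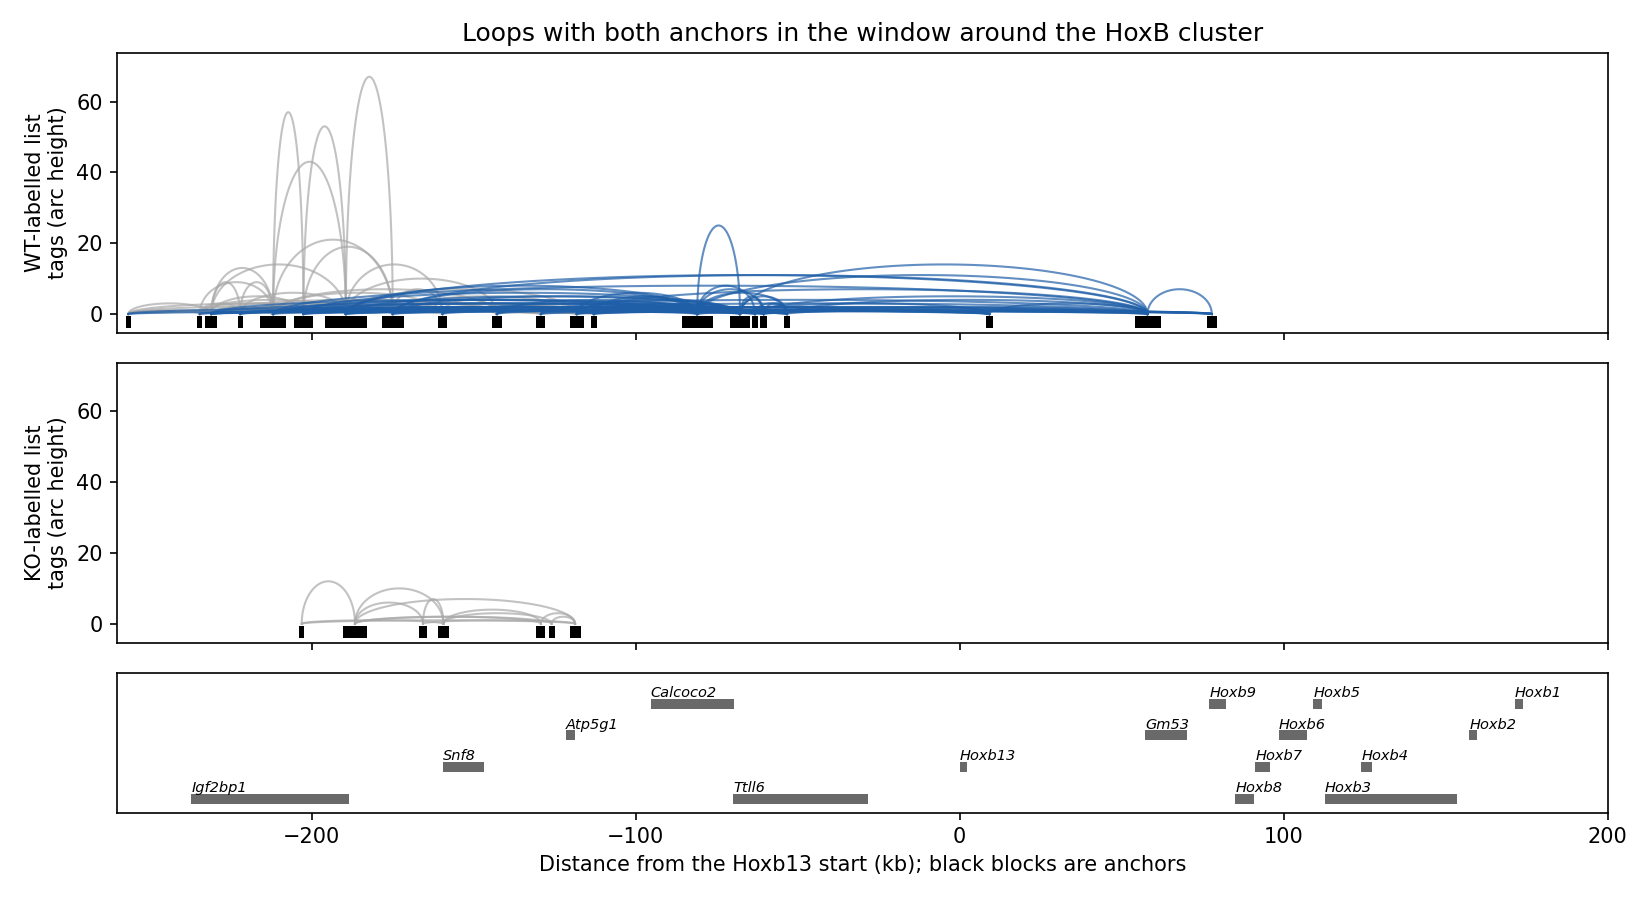
Loops with both anchors in the drawn window around HoxB, as arcs whose height is the tag count (same scale in both panels), against distance in kb from the Hoxb13 start, with anchors as black blocks and genes below. Coloured arcs touch the cluster widened by 100 kb and grey arcs do not: the WT-labelled list has arcs from the anchor between Hoxb13 and Hoxb9 leftwards, and the KO-labelled list has no anchor right of the one at Atp5g1.

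HoxC had 103 loops with 186 tags, 457 scaled tags (exact interval 394 to 527), in the WT-labelled list, and 12 loops with 19 tags, 19.4 scaled tags (11.7 to 30.4), in the KO-labelled list. Here the WT-labelled anchors lay on the Hox genes themselves. Hoxc12 carried most, with 24 loops and 61 tags, followed by Hoxc11 with 15 loops and 35 tags and Hoxc13 with 13 loops and 30 tags. The pair with most tags was Hoxc13 with Hoxc12, 13 tags over 12.6 kb (FDR 0.0259), and these are the HoxC genes with the most reads in the WT-labelled libraries. Hoxc12 also reached an anchor over Cbx5 and Hnrnpa1 with 7 tags over 308 kb (FDR 2.16e-12). Hoxc4 joined the adjacent Gm30528 anchor with 9 tags (FDR 0.525). The 19 KO-labelled tags came from anchors beside the cluster, such as 4 tags that joined D930007P13Rik to Cbx5.

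HoxD was sparser, with 42 loops and 55 tags, 135 scaled tags (exact interval 102 to 176), in the WT-labelled list and 19 loops with 19 tags, 19.4 scaled tags, in the KO-labelled list. The strongest WT-labelled pairs joined Hoxd13 to Hoxd11 and Hoxd11 to Hoxd8, with 4 tags each and an FDR of 1.00, so neither stood out by the authors' measure. All 19 KO-labelled loops had 1 tag and started from the anchors on Lnpk and Mtx2, outside the cluster. HoxD genes therefore carried anchors in the WT-labelled list although their summed RNA was not lower in the KO-labelled libraries.

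With 100 kb of widening, HoxA and Halr1 shared anchors and loops, since the widened regions overlap, so their values are not independent. The HoxA region had 157 tags, 386 scaled tags (exact interval 328 to 451), against 182 tags, 186 scaled tags (160 to 215). The Halr1 region had 193 tags, 474 scaled tags (410 to 546), against 213 tags, 218 scaled tags (190 to 249). These lower shares depended on the FDR cutoff. With loops of FDR at most 0.01 and at least 2 tags, the KO-labelled list stood above the WT-labelled one by 44.9 scaled tags at HoxA and 46.5 at Halr1. With at least 2 tags and no FDR cutoff, the KO-labelled minus WT-labelled difference was -144 scaled tags at HoxA and -220 at Halr1. The width mattered as well: with 25 kb of widening, HoxA had 96 tags against 0, and Halr1 had 86 against 161, or 46.5 scaled tags fewer in the KO-labelled list. Halr1 was the one member with an anchor in both lists, with 23 loops and 52 tags in the WT-labelled list (anchor 52101884 to 52109960) and 18 loops and 49 tags in the KO-labelled one (52104595 to 52106424). Its near absence from the KO-labelled RNA was therefore not matched by a missing anchor. The partners differed, though. In the WT-labelled list, the strongest Halr1 loops, of 7 tags each, went 78.6 kb and 27.6 kb upstream, away from HoxA (FDR 0.181 and 0.537), and weaker ones reached into the cluster. In the KO-labelled list, the strongest loops of the region joined anchors upstream of Halr1, with 16 and 13 tags (FDR 2.40e-05 and 9.42e-04), Halr1 joined the same upstream anchor with 9 tags (FDR 0.0188), and no anchor lay on HoxA.

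**Figure D5:**
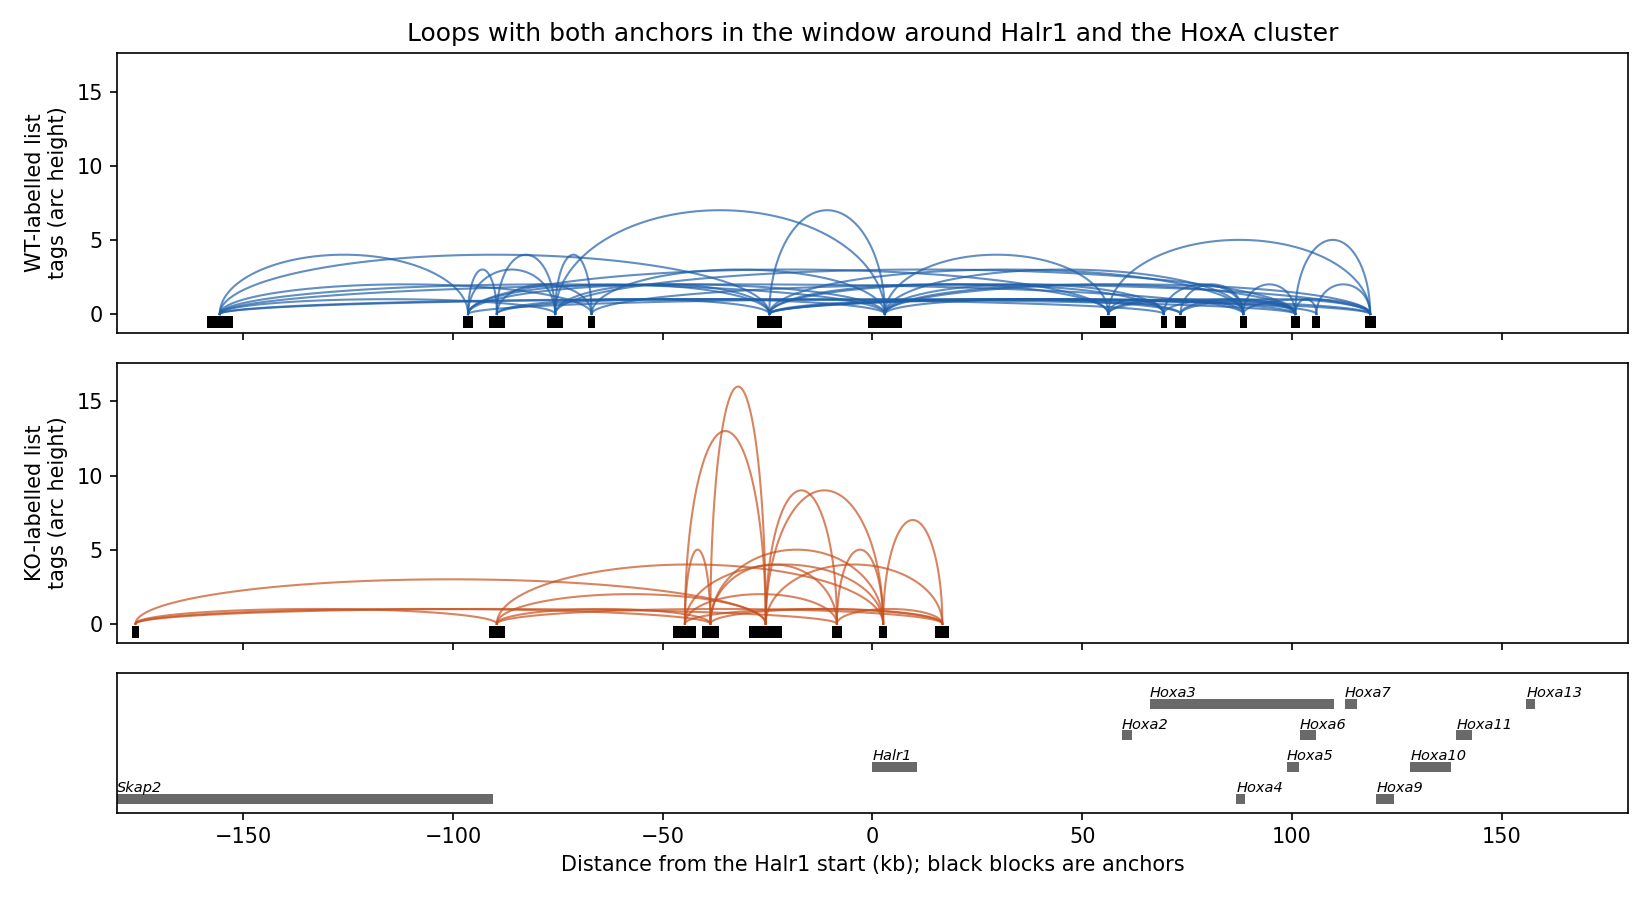
Loops with both anchors in the drawn window around Halr1 and HoxA, as arcs whose height is the tag count (same scale in both panels), against distance in kb from the Halr1 start, with anchors as black blocks and genes below. The WT-labelled arcs, up to 7 tags, cross from the Halr1 side into HoxA, while the KO-labelled arcs, up to 16 tags, end before the first Hox gene.

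Loops listed for both labels were counted last. A loop with both anchors overlapping those of a loop in the other list by at least 1 base made up 1.90% of the 474 WT-labelled loops and 5.96% of the 151 KO-labelled ones, 9 loops in each. Over the whole lists the same share was 24.5% in the WT-labelled and 7.49% in the KO-labelled list. The shared loop with most tags joined Halr1 to the anchor upstream of it. Of the anchors in the widened regions, 5 of 36 WT-labelled and 5 of 11 KO-labelled overlapped one of the other list, where 72.4% of all KO-labelled anchors overlapped none.

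Promoter sequence was set beside these anchors for the 23 members with a RefSeq promoter entry, in the 250 bases before the start. These members have 25 promoter windows, since Hoxa10 and Hoxd11 have 2 each. A WT-labelled anchor overlapped 10 of the 25 windows and a KO-labelled anchor 0, where 37.8% of all 32851 promoter windows overlapped a WT-labelled and 50.1% a KO-labelled anchor. Of all windows that overlapped a WT-labelled anchor, 8.72% overlapped no KO-labelled one. Of the 7 members called lower, Halr1, Hoxa7 and Hoxc4 have an entry. The Hoxc4 promoter is shown because a WT-labelled anchor overlapped it, the Hoxa7 promoter because none did, and the Hoxd13 promoter because a WT-labelled anchor overlapped it and it holds a KLF-type match. Bases G and C made up 47.6% of the Halr1, 62.0% of the Hoxc4, 54.8% of the Hoxa7 and 74.4% of the Hoxd13 window.
Hoxc4 promoter (chr15:103034145-103034394, plus strand): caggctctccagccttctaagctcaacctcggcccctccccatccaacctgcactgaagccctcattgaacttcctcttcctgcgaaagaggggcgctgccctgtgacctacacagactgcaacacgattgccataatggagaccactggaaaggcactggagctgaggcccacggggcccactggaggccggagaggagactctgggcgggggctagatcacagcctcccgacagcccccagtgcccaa
Hoxa7 promoter (chr6:52218574-52218823, minus strand): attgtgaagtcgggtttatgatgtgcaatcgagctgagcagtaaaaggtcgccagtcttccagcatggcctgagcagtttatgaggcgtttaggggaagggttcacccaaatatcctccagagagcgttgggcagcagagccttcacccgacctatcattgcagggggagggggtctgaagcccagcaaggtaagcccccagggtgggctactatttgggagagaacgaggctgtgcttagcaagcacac
Hoxd13 promoter (chr2:74667975-74668224, plus strand): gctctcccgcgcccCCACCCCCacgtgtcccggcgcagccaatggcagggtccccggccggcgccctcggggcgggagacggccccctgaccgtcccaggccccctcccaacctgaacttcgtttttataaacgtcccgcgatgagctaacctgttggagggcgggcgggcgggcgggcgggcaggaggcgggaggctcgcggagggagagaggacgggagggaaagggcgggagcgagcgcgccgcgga

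Motifs were searched on both strands. GGGNGTGG (KLF type) was in 6 of the 25 windows, those of Hoxa2, Hoxa13, Hoxb1, Hoxd12 and Hoxd13 and 1 of Hoxa10, and in 15.9% of all promoter windows of that length. CAATAAA (caudal type) was in the Hoxb8 window alone of the 25, where 4.20% of all windows hold it, and TGATTNAT (Hox-Pbx type) was in that of Hoxa2 and 1 of Hoxd11, where 2.82% hold it. A direct repeat of AGGTCA with a gap of 5 or of 2 bases, the form bound by retinoic acid receptors, was in none of the 25 and in 0.00913% of all windows for either gap. The windows of Halr1, Hoxa7 and Hoxc4 held none of these motifs, which says only that the letters are not in them. The other members called lower have no entry and were not searched. A match is a description of sequence and not a binding site.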

How the data were processed

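RNA-seq of 4 libraries (2 WT-labelled, 2 KO-labelled) and 2 pooled HiChIP loop lists were used, grouped by the sample titles; the ChIP-seq samples were not. RNA-seq was deposited as unnormalized read counts by gene symbol, made by the authors. The submitters' processing notes name HISAT2 2.1.0, featureCounts 2.0.3, Bowtie2 2.4.4, HiC-Pro 2.11.1, MACS2 2.2.7.1 and build mm10. The strand setting is not given in the sources used here, so reads of overlapping or antisense genes cannot be told apart. Rows that name no gene (20.4% to 22.5% of column totals) stayed out of library sizes. Each loop row gives 2 anchors, a deposited count of tags and a deposited FDR (q-value).

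Genes were filtered with filterByExpr (minimum count 10), scaled by TMM and compared by the two-sided quasi-likelihood F test of edgeR 4.0.16 (R 4.3.3), with Benjamini-Hochberg adjustment over 17273 genes. CPM uses TMM-scaled sizes, and 3 counts equal 0.0837 to 0.108 CPM. The procedure was checked on simulated data. Ratios and tag shares carry exact binomial intervals (Clopper-Pearson for shares) at 95%, which cover counting error only. Anchors overlapped when they shared at least 1 base; coordinates are 1-based, with genes and sequences from RefSeq GRCm38.p6. DESeq2 1.42.0, other scalings, no filter, left-out replicates and other loop cutoffs were alternatives.

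Members and lists were chosen with earlier results of these data known. Besides the members, Klf4 and the cell type markers, the named genes follow a rule. They are the 2 largest called rises and falls in each list and among neighbours of each locus, and for loops those with most tags. Cdx2, Cdx4, Evx1, Gm53, Gm11539 and other loops were added after their values were seen. One neighbour that the rule gives is not reported here. The series design states that replicates are biological.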

Additional observations from a re-analysis of the deposited data

How the results depend on the processing

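Halr1, Hoxa7, Hoxb9, Hoxb13, Hoxc12 and Hoxc13 stayed past the threshold under every scaling and test, with and without the filter. They also stayed lower without each replicate. Hoxc4 did not keep its call, as given above. Halr1, Hoxa7, Hoxb13 and Hoxc12 passed the filter through the WT-labelled libraries alone, so that they stay lower is a description and not support for a direction. Leaving out 1 replicate gave 6 to 8 called members (8 means 6 lower and 2 higher, without WT replicate 1 and without KO replicate 1) and 11683 to 12273 called genes overall. Fits that leave 1 library in a group assume that it varies like the other group. DESeq2 called 6 members and 11515 genes, and no filter 10 members and 12898 of 28637 genes. Deviations of same-numbered replicates correlated at 0.0153, so the numbers do not pair the samples; with a replicate block, 7 members and 12410 genes were called. Library size alone moved the share of calls that were higher from 50.9% to 62.0% and the median log2 fold change to 0.24, with all 7 members still lower.

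With loops of FDR at most 0.01 and at least 2 tags, the ratio of tag shares over all regions was 0.165 (0.118 with all loops), and the difference turned to 44.9 scaled tags at HoxA and 46.5 at Halr1 (-199 and -256 with all loops). Other loop cutoffs gave ratios of 0.111 to 0.133, and with 25 kb of widening HoxA stood at -236, HoxB at -479 (-1100 with 100 kb) and Halr1 at -46.5. The cause was not tested. For members without a call in either the filtered or the unfiltered fit, no difference was detectable at this depth.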
